A study of Homo sapiens with 4 samples.

Results

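Transcription factors of the endoderm, the germ layer that gives rise to gut, liver and pancreas, were examined in human embryonic stem cells. The 6 factors, SOX17, FOXA1, FOXA2, FOXA3, HHEX and HNF4A, were chosen by name, and all probes annotated with their symbols were taken. On an array with 47296 probes and 20041 named genes, 5 of the 6 had a probe with their symbol, 7 probes in all, and 4 of the 6 were detected on at least 1 array. No probe carried the symbol HNF4A in the annotation used here, which left 17183 probes unnamed, so HNF4A could not be assessed.

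RNA came from 4 cultures, with 1 Illumina Expression BeadChip array for each. The untreated culture grew in E8, a chemically defined medium for pluripotent cells, and is labelled 24 hrs (E8). Cells in E8 received nicotinamide at 10 mM for 24 h (Nam), or Y27632, an inhibitor of the kinase ROCK, at 10 µM for 24 h (Y27632). The culture labelled Mesoderm was kept in E8 with BMP4 for 6 days. No untreated culture of 6 days is among the arrays, so BMP4 and time in culture cannot be told apart. The dose of BMP4, a ligand of the TGF-beta family, is not given in the sources used here. The labels name H9 in one field and H1 in another, both established embryonic stem cell lines. A check of the arrays went against the former field on 4 of 4 and matched the latter on 4 of 4. Both counts come from the same criterion, which cannot tell the latter line from other lines that would meet it.

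The array means of the signal ranged from 528.5 to 620.5, and 16509 to 18051 probes per array were detected at a detection p of at most 0.01. There were no replicates, so differences have no replicate error and were not tested. The number of arrays limits the precision, since a difference between 2 arrays can also be a difference between cultures or hybridisations. Of 7 pluripotent cell markers with a probe, 7 were detected on E8, Nam and Y27632 and 6 on Mesoderm, where SOX2 was not detected. Detection hides their level: 5 of the 7 were at least 2-fold lower on Mesoderm than on E8 and 0 higher. Of all genes, 11.4% were lower and 10.6% higher by as much. The median log2 difference of the 7 was -2.31, against -0.02 for all genes. Of 10 mesoderm markers, 9 were detected on Mesoderm, 1 on Nam and 0 on E8 and Y27632. In RNA from a whole culture, fewer cells of a type and less RNA per cell cannot be told apart.

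SOX17 is an HMG-box factor of definitive and extraembryonic endoderm, also active in endothelium and, in human, in primordial germ cells. FOXA1, FOXA2 and FOXA3 are forkhead factors that bind closed chromatin and open it for other factors in gut and liver. FOXA2 also marks the anterior primitive streak and the node. HHEX is a homeobox repressor of anterior endoderm, liver and thyroid, and of blood and endothelial progenitors, and HNF4A is a nuclear receptor of liver and gut epithelium. In embryos, endoderm and mesoderm arise together from the primitive streak, where Nodal signals favour endoderm and BMP signals favour posterior mesoderm.

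The 250 bases before the start site are shown for FOXA3 and HHEX, the members detected on all 4 arrays, and for FOXA1, the paralog of FOXA3 detected on none. They are RefSeq sequences of build GRCh38.p14, whose promoter table held 4 of the 6 members. Capitals mark matches, on either strand, to the TATA box searched with TATAAA, the CCAAT box with its own letters, the GC box with GGGCGG, the forkhead site with TGTTTAC, the GATA site with AGATAA, and the SMAD site of BMP signalling with GGCGCC.
FOXA3, chr19:45864076-45864325, plus strand: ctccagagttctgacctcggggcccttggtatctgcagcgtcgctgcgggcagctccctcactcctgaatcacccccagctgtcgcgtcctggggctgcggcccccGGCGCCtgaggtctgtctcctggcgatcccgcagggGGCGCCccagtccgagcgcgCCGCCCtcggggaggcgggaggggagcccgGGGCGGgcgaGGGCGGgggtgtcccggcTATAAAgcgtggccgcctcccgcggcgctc
HHEX, chr10:92689705-92689954, plus strand: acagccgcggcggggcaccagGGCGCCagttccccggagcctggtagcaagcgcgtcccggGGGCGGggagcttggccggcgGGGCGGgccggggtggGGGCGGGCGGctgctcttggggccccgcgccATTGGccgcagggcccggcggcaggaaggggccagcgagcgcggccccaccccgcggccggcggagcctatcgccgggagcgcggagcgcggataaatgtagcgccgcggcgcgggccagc
FOXA1, chr14:37595250-37595499, minus strand: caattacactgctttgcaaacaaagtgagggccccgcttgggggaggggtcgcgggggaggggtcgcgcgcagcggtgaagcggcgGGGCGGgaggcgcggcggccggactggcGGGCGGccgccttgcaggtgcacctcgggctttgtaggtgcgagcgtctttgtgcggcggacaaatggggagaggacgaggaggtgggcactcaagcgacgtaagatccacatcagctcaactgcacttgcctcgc

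All 3 windows were rich in G and C, at 75.2% for FOXA3, 81.2% for HHEX and 67.2% for FOXA1, against a median of 58% over 35116 promoter windows of the same length. The FOXA3 window held a TATA box starting 30 bases before the start site, a motif found in 10.7% of all windows, and HHEX and FOXA1 had no match to it. A GC box, found in 42.6% of all windows, was present in all 3, and 2 of the 4 copies in HHEX overlapped. GGCGCC, found in 16.4%, was present in FOXA3 and HHEX. HHEX alone of the 3 held a CCAAT box, found in 32% of all windows. None of the 3 held a forkhead or GATA site, found in 2.98% and 9.17%. These matches describe letters in a window, and binding was not measured.

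SOX17 and FOXA2 were detected on the Mesoderm array alone. The SOX17 probe gave a signal of 135.4 in E8, 116.2 in Nam, 117.5 in Y27632 and 1142 in Mesoderm, with detection p-values of 0.39, 0.91, 0.94 and 0. The 3 cultures without BMP4 were thus at background, and the Mesoderm array stood clear of them. After background correction and quantile normalization, the log2 values were 4.69, 4.44, 4.42 and 10.00 in the same order. Because the E8 value is background, the fold is given as a bound, set against the dimmest detected probe of the E8 array. On this normalized scale SOX17 was at least 21.3-fold higher on Mesoderm than on E8. The bound depends on the background correction: without it the log2 difference was 3.07, below the log2 bound of 4.42. Against the 3 other arrays in turn the bound lay between 18.1-fold and 22-fold.

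FOXA2 was measured by 3 probes, and they did not agree. ILMN_1668052 gave a signal of 145.9 in E8, 140.3 in Nam, 153.5 in Y27632 and 1205 in Mesoderm, with detection p-values of 0.13, 0.12, 0.056 and 0. By this probe, on the same normalized scale, FOXA2 was at least 22.7-fold higher on Mesoderm than on E8. Over the 3 other arrays it was at least 19.3-fold to 23.4-fold higher. Without background correction the log2 difference from E8 was 3.05, below the log2 bound of 4.51. Its log2 values were 4.94, 4.97, 5.26 and 10.09, so that the Mesoderm array lay far above a group of 3 background values.

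The other FOXA2 probes stayed at background on every array. ILMN_1678728, annotated to the same transcript as the detected probe (NM_153675), had signals of 111.3, 100.9, 114.5 and 132.8 on E8, Nam, Y27632 and Mesoderm, with no detection p below 0.75. ILMN_1763712, annotated to NM_021784, had signals of 116.9, 109.8, 131.5 and 129.3, with no detection p below 0.52. Their log2 differences between Mesoderm and E8 were 0.14 and 0.05, against 5.15 for the detected probe. The result for FOXA2 therefore rests on 1 of 3 probes, and the mean difference over the 3 was 1.78. Undetected probes were common on these arrays: of 4765 detected genes with 2 or more probes, 2472 (51.9%) had at least 1 probe detected on no array. Of the 473 among them at least 2-fold higher on Mesoderm, 281 (59.4%) had one. These counts ignore transcripts and the number of undetected probes, so how common a split like that of FOXA2 was is not known. SOX17, FOXA1, FOXA3 and HHEX had 1 probe each, so that probe agreement could not be checked for them.

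**Figure D1:**
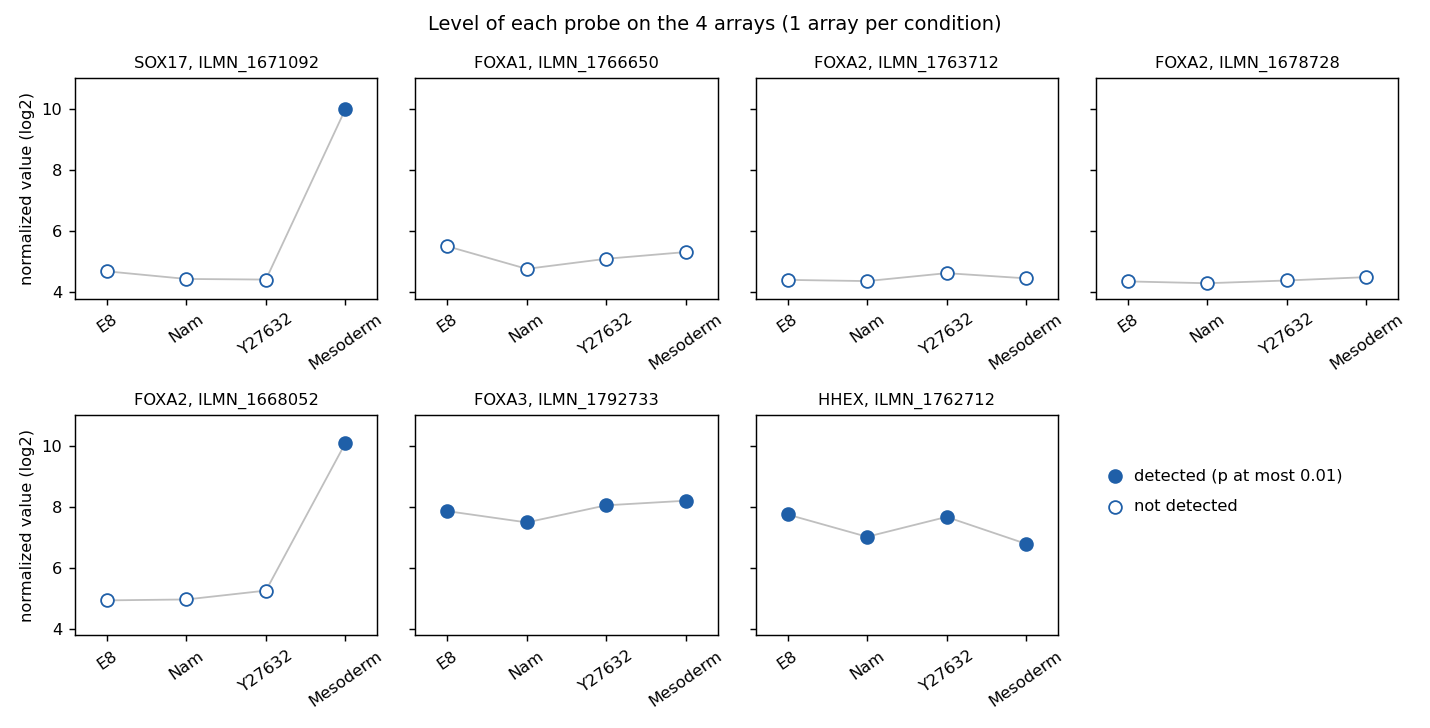
Normalized log2 value (vertical axis) of each of the 7 probes on the 4 arrays (horizontal axis), with filled points where the probe was detected (p at most 0.01) and open points where it was not. Grey lines only guide the eye, and each point is 1 array. SOX17 and 1 FOXA2 probe are near 10 on Mesoderm and below 5.5 elsewhere, 2 FOXA2 probes stay below 5 on all arrays, and FOXA3 and HHEX are detected throughout.

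HHEX was detected on every array, with a detection p of 0 on each. Its signal was 368.9 in E8, 229.1 in Nam, 309.8 in Y27632 and 235.4 in Mesoderm. In normalized log2 values it stood at 7.75, 7.02, 7.67 and 6.79, so that E8 and Y27632 were the high arrays and Nam and Mesoderm the low ones. E8 and Y27632 differed by -0.08, well within the 0.25 by which probes of the same gene differed in that comparison (pooled SD over genes with several detected probes). HHEX thus ran opposite to SOX17 and FOXA2 on the Mesoderm array.

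FOXA3 was also detected on every array, with a detection p of 0 on each. Its signal was 388.9 in E8, 273.1 in Nam, 369.3 in Y27632 and 419.7 in Mesoderm. Normalized log2 values were 7.86, 7.49, 8.05 and 8.20, so that Mesoderm was the highest array and Nam the lowest. Mesoderm and Y27632 lay 0.34 and 0.18 above E8, less than the SDs between probes of the same gene in these comparisons (0.42 and 0.25), while Nam lay 0.38 below E8, above the SD of 0.30 there. That SD covers probes and not cultures, whose spread is unknown with 1 array each.

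FOXA1 was not detected at a detection p of 0.01 on any array. Its signal was 167.7 in E8, 133.8 in Nam, 149 in Y27632 and 165.9 in Mesoderm, with detection p-values of 0.012, 0.29, 0.091 and 0.036. The E8 value missed the threshold narrowly, and at a detection p of at most 0.05 it would be detected on 2 arrays, E8 and Mesoderm. The log2 values of 5.51, 4.77, 5.10 and 5.32 lay below those of the dimmest detected probe of each array, 5.59 in E8, 5.54 in Nam, 5.82 in Y27632 and 5.63 in Mesoderm. No fold is given, since all 4 values are near background. Among the FOXA paralogs, therefore, FOXA3 was detected on all arrays, FOXA2 on Mesoderm by 1 probe, and FOXA1 on none.

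Mesoderm against E8 shows how the members stood after differentiation. Of the 4 members compared, 2 were at least 2-fold higher, SOX17 and FOXA2, and 0 were at least 2-fold lower. Of the 11649 genes compared, 10.6% were higher by 2-fold or more and 11.4% lower by as much. Higher genes were 48.1% of these calls, and 36.6% with median scaling, which moved the median of all genes to -0.19. Both SOX17 and FOXA2 passed the detection filter through the Mesoderm array alone and so had to be higher there, and their count is a description. HHEX differed by -0.96, 1.95-fold lower and just short of 2-fold, more than the between-probe SD of 0.42. At 1.5-fold HHEX was lower, as were 22.5% of all genes. FOXA3 differed by 0.34, within that SD.

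The comparison of Nam with E8 concerns nicotinamide, the amide form of vitamin B3, in cells kept pluripotent. SOX17, FOXA1 and FOXA2 were not detected on either array, so only HHEX and FOXA3 could be compared. Neither differed by 2-fold, whereas 0.694% of 11390 genes were higher by that much and 1.56% lower. HHEX differed by -0.73, 1.66-fold lower, which is more than the between-probe SD of 0.30 and ranked 459 from the bottom. At least 1.5-fold lower were 6.69% of all genes, HHEX among them, and the 5th percentile of all genes was -0.67. FOXA3 differed by -0.38, 1.3-fold lower, and ranked 1483 from the bottom.

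The comparison of Y27632 with E8 concerns an inhibitor used to keep dissociated stem cells alive. Here too the members compared were HHEX and FOXA3, and neither differed by 2-fold, while 0.228% of 10989 genes were higher by that much and 0.182% lower. HHEX differed by -0.08 and FOXA3 by 0.18, both within the between-probe SD of 0.25, and FOXA3 differed by -0.03 with median scaling. SOX17, FOXA1 and FOXA2 remained undetected.

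Nicotinamide and Y27632, given for the same time, were also set against each other. Among 11173 genes, 0.635% were higher on Nam by 2-fold or more and 1.07% lower, with 0 of the 2 members among them. HHEX was lower on Nam by -0.65, 1.57-fold, against a between-probe SD of 0.29, and 4.89% of all genes were at least 1.5-fold lower. FOXA3 was lower on Nam by -0.56, 1.47-fold. The 5th percentile of all genes was -0.58, so HHEX lay below it and FOXA3 just inside. The Nam array gave the lowest FOXA3 value of the 4 arrays, and its HHEX value was below those of E8 and Y27632. The comparisons with E8 share the E8 array, so their differences are not independent of each other.

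**Figure D2:**
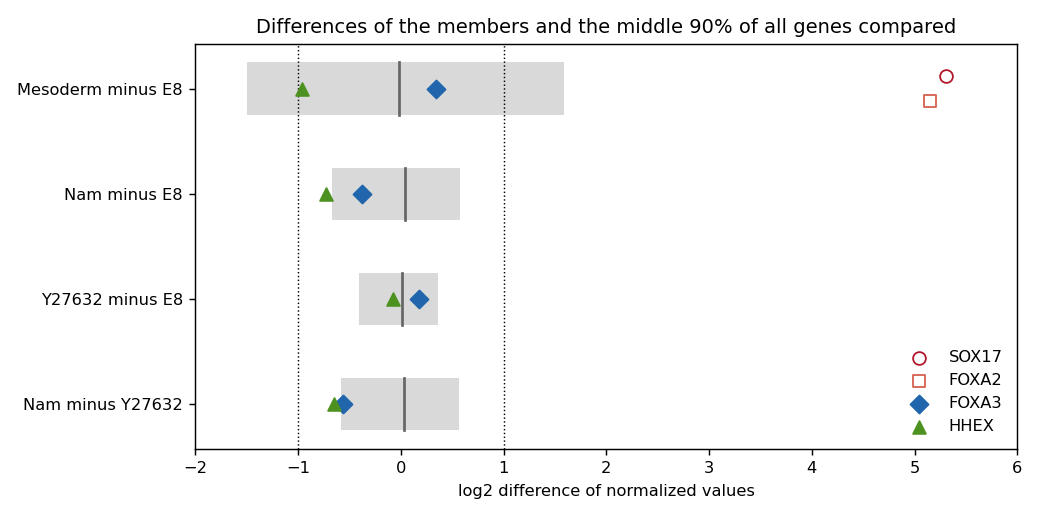
Log2 difference of normalized values (horizontal axis) of the detected members in the 4 comparisons (vertical axis). Grey bars span the 5th to 95th percentile of all genes compared, the tick in each is their median, open points are differences in which the probe was undetected on E8, and dotted lines mark 2-fold. SOX17 and FOXA2 lie above 5 in Mesoderm minus E8. HHEX lies just outside the grey bar in Nam minus E8 (-0.73) and in Nam minus Y27632 (-0.65).

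The detection pattern of SOX17 and FOXA2 was shared by 606 of the 12083 genes with a detected probe (5.02%), while 9484 genes (78.5%) were detected on all 4 arrays as HHEX and FOXA3 were. Over the 4 arrays, with each gene's mean removed, the genes with values most like those of SOX17 were MEIS2, a mesoderm homeobox factor (root mean square difference 0.05 on the log2 scale), CST1 (0.10), MYOF (0.16), FSHR (0.17) and ENPEP (0.21). For FOXA2 they were TFPI, an inhibitor of coagulation (0.06), MYOF (0.13), FSHR (0.14), LOX, which cross-links collagen (0.16), and the WNT antagonist DKK4 (0.17). On E8, Nam and Y27632 the 5 genes named for SOX17, and those named for FOXA2 other than TFPI, lay below the dimmest detected probe, as the members did, so the likeness is mostly that of their Mesoderm values to background. MEIS2 is shown by its brightest probe of 4, whose differences between Mesoderm and E8 ran from -0.05 to 5.34. Of all genes, 4 lay within 0.2 of SOX17 and 7 within 0.2 of FOXA2.

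For HHEX the closest genes were MCMDC2 (0.01), NRBP2 (0.02), the chemokine CXCL16 (0.02), ANKRD44 (0.04) and the histone gene H2BC9 (0.04). For FOXA3 they were CNN3-DT (0.01), ASGR1, a liver lectin (0.04), IL10RB (0.04), PNP (0.04) and TARP (0.04). TARP was below the dimmest detected probe on E8, Nam and Y27632, CXCL16 on Nam and Mesoderm and ANKRD44 on Mesoderm, so their likeness rests in part on background values. Likeness was less selective here, with 463 genes within 0.2 of HHEX and 1002 within 0.2 of FOXA3. The order of arrays seen for HHEX, highest on E8 and then Y27632, Nam and Mesoderm, was shared by 798 (8.41%) of the genes detected on all arrays, and that of FOXA3 by 645 (6.8%). With 4 arrays, these likenesses describe the arrays and no more.

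Other transcription factors that act with the members in early endoderm were mostly seen on the Mesoderm array as well. Of 20 with a probe, 15 were detected on Mesoderm against 6 on E8, 6 on Nam and 5 on Y27632. In Mesoderm minus E8, 10 of 15 were at least 2-fold higher by normalized value and 1 was lower, where 10.6% of all genes were higher and 11.4% lower. Of the 15, 9 passed the detection filter through Mesoderm alone and so had to be higher there. The same was true of the secreted and surface genes CXCR4, CER1, DKK1, FGF17 and TRH. The counts and medians of these lists are descriptions. The median was 1.75, or 1.53 with genes not detected on E8 set at their bounds, against -0.02 for all genes. The T-box factor EOMES, which switches on endoderm genes in the streak, was at least 146-fold higher. LHX1, a factor of anterior mesendoderm, was at least 18.9-fold higher, and MIXL1, a streak homeobox factor, at least 2.9-fold.

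GATA4 and GATA6, zinc finger factors of endoderm and heart, were at least 5.22-fold and 1.95-fold higher on Mesoderm. PROX1, of liver and lymphatic endothelium, was at least 5.42-fold higher and TBX3 at least 7.69-fold. PRDM1, a repressor used in endoderm and germ cells, was at least 6.22-fold higher by the detected probe of 4, whose differences ran from 0.31 to 3.76. OTX2, of anterior neuroectoderm and anterior endoderm, differed by 1.69 on Mesoderm, with its 3 probes running from 0.35 to 1.69, and by -1.22 on Nam. ONECUT1, a liver and pancreas factor, went the other way on Mesoderm, at -1.80, with its 2 probes at -1.92 and -1.80. Of the SOX17 relatives in the SOXF group, SOX18 differed by 1.37 and SOX7 was at least 1.56-fold higher. GSC, CDX2, PDX1, NKX2-1 and HNF4G were not detected on any array.

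Secreted and surface proteins of early endoderm split in direction. Of 15 with a probe, 12 were detected on Mesoderm, 8 on E8, 6 on Nam and 9 on Y27632. Of 13 compared with E8, 8 were at least 2-fold higher and 3 lower (median 3.62, and 2.48 with dim genes at their bounds). Of all genes, 10.6% were higher and 11.4% lower by as much. CXCR4, the chemokine receptor used to sort endoderm, was at least 9.06-fold higher, with its 3 probes running from -0.15 to 4.18. CER1, a secreted Nodal and BMP antagonist, was at least 14.2-fold higher, and its 2 probes lay at 4.40 and 4.48. FGF17 was at least 11.2-fold higher and DKK1 at least 6.6-fold, by 1 of 2 probes. The Nodal pathway members NODAL and LEFTY1 were low: NODAL was detected on E8, Nam and Y27632 and at least 10.9-fold lower on Mesoderm, and LEFTY1 differed by -3.54. LEFTY2, also of this pathway and detected on all arrays, differed by 0.15. The receptor KIT differed by -1.26. Highest in the list were BMP2, a BMP ligand, at 6.01, and HAS2, a hyaluronan synthase, at 5.67, the latter with 4 probes from 0.27 to 5.67.

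Nicotinamide and Y27632 gave smaller differences in these secreted and surface genes. Of 9 compared between Y27632 and E8, 1 was at least 2-fold higher by normalized value, CER1, and 0 lower. Of all genes, 0.228% were higher and 0.182% lower by as much. CER1 had log2 values of 4.94 in E8, 4.81 in Nam, 5.99 in Y27632 and 9.41 in Mesoderm. Not detected on E8, it had to be higher on Y27632, and its bound over E8 was 1.32-fold. On Nam, FRZB, a WNT antagonist, was lower by -1.20 against E8 and by -1.02 against Y27632, and it was the list's gene at least 2-fold lower than on E8. NODAL differed by -0.84 between Nam and E8.

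Liver and yolk sac products, many of them targets of FOXA and HNF4A factors in liver, were mostly not detected. Of 24 with a probe, 17 were detected on no array, among them AFP, TTR, APOB, TF, FGB and SERPINA1. On Mesoderm 6 were detected, on E8 2, on Nam 2 and on Y27632 3. Of the 6 compared between Mesoderm and E8, 3 were at least 2-fold higher by normalized value and 0 lower, where 10.6% and 11.4% of all genes were. The median was 0.96, and 0.44 with dim genes at their bounds. The 3 were APOE (1.17), which was detected on all arrays, APOA1 (at least 1.2-fold) and APOA2 (at least 1.53-fold). Of the 6, 4 passed the detection filter through Mesoderm alone and so had to be higher there, APOA1 and APOA2 among them. ALB was detected on Y27632 alone, at 5.98, near the lowest detected value of 5.82.

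The members are also used outside endoderm, and markers of those tissues were read beside them. Of 8 node and notochord genes, where FOXA2 is active, 3 were detected on Mesoderm and 2 on each of E8, Nam and Y27632. TBXT (brachyury) was at least 9.3-fold higher, with its 2 probes at 1.37 and 4.23, SHISA2 differed by 1.35, NOG was at least 1.2-fold higher and FOXJ1 at least 1.86-fold lower, while SHH, CHRD and NOTO were detected on no array. TBXT and NOG were detected on Mesoderm alone, and FOXJ1 on E8 and not on Mesoderm, so the filter fixed their direction. Of 14 endothelial and blood genes, where SOX17 and HHEX are active, 4 were detected on Mesoderm, 4 on E8, 3 on Nam and 3 on Y27632. On no array were 10 detected, PECAM1, CDH5, TAL1 and RUNX1 among them. KDR, the VEGF receptor, differed by 1.56, LMO2 by 3.37 and VWF by 3.64.

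Of 11 primordial germ cell genes, where human SOX17 is active, 8 were compared between Mesoderm and E8. Of these, 1 was at least 2-fold higher and 5 lower (median -1.44, and -0.92 with dim genes at their bounds). Of all genes, 10.6% were higher and 11.4% lower by as much. PRDM1 was the higher one. Both PRDM1 and NANOS3, the latter at least 1.74-fold higher, were detected on Mesoderm alone and so had to be higher there. TFAP2C (-1.63), PDPN (-1.85), KIT (-1.26), PRDM14 (at least 6.01-fold) and DAZL (at least 1.44-fold) were lower. PRDM14 and DAZL were detected on E8 and not on Mesoderm, so they had to be lower. The 2 probes of PRDM14 lay at -3.15 and -1.14 and those of PDPN at -1.85 and -0.35, so the sizes given are those of the brightest probe. DDX4, DND1 and TCL1A were detected on no array. Of 12 genes of gut, lung and pancreas epithelium, 6 were compared. Of these, 2 were at least 2-fold higher, the keratins KRT19 (2.49) and KRT8 (1.48), against 10.6% of all genes. The 1 lower gene was SOX2 (at least 100-fold), against 11.4% of all genes, and it was not detected on Mesoderm, so it had to be lower. EPCAM (0.13) and CDH1 (-0.25), epithelial adhesion genes, were detected on all arrays. Amnion or trophoblast markers were detected in 6 of 11 cases on Mesoderm and 2 on E8, with TFAP2A at least 66.1-fold higher by its brightest probe of 5. TFAP2A was detected on Mesoderm alone and so had to be higher there. The part of these cell types in the SOX17 and FOXA2 values was not tested.

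**Figure D3:**
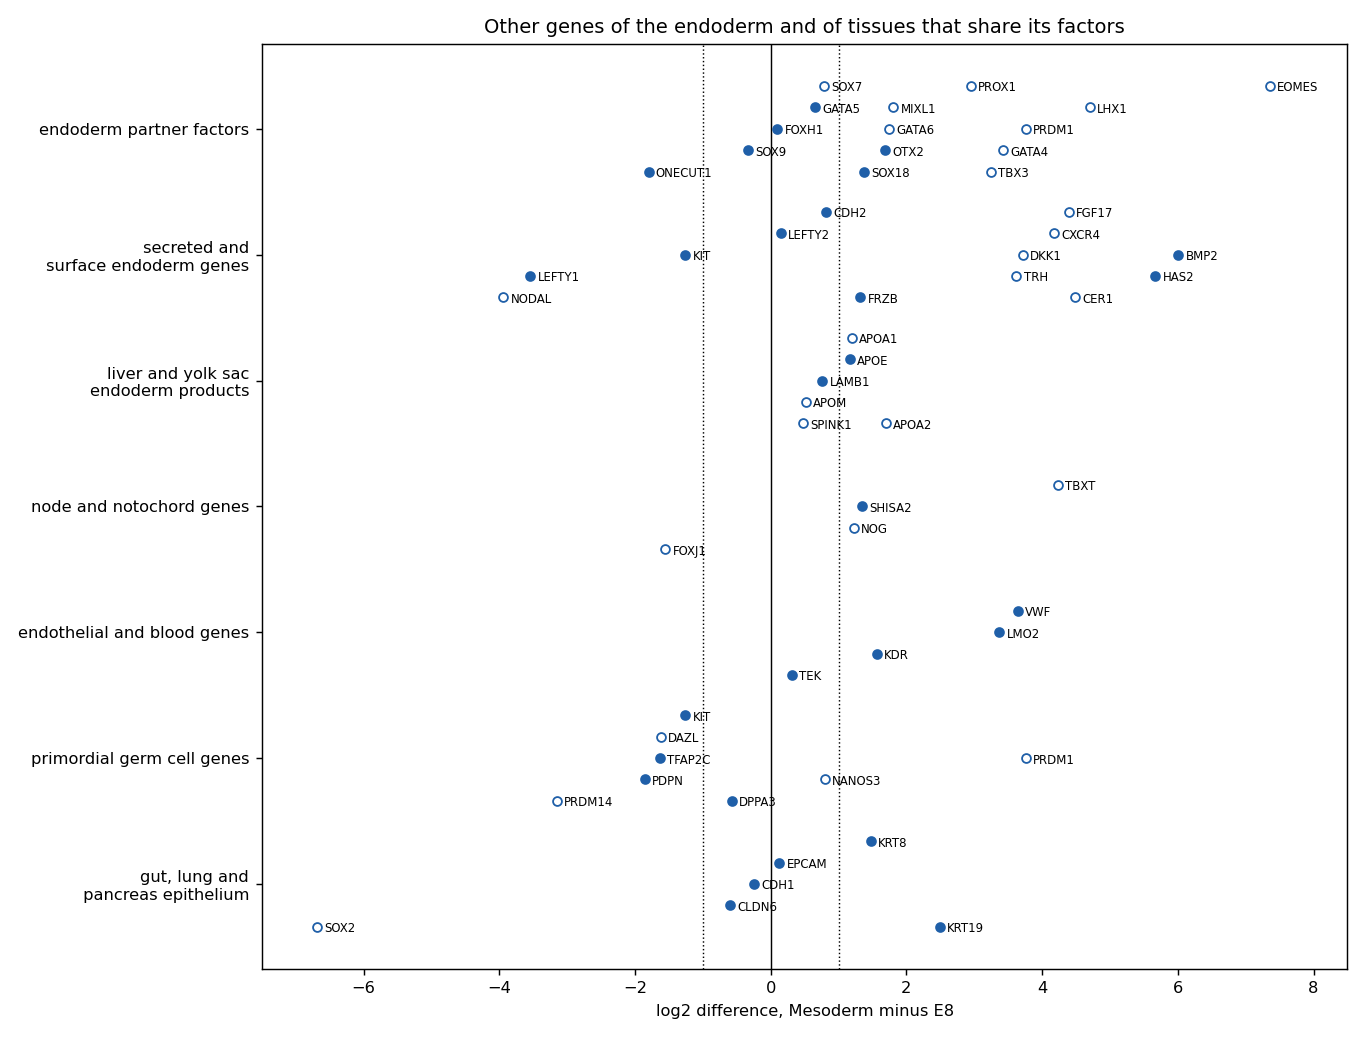
Log2 difference between Mesoderm and E8 (horizontal axis) of each gene compared, by gene list (vertical axis, spread within a list only to separate the labels). Open points are genes not detected on the dimmer array, whose difference depends on the background, and dotted lines mark 2-fold. EOMES lies furthest right among the partner factors, ONECUT1 at -1.80 is the lower one, and 6 liver and yolk sac genes appear out of 24 with a probe.

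The members were also placed among their own gene families, taken by symbol. Of 47 forkhead genes with a probe, 24 were detected on at least 1 array. Of 22 compared between Mesoderm and E8, 4 were at least 2-fold higher and 4 lower, with a median of -0.15. Of all genes, 10.6% were higher and 11.4% lower by as much. The 4 higher ones passed the detection filter through Mesoderm alone and so had to be higher there. With FOXA2, the higher ones were FOXQ1 (at least 3.88-fold), FOXF2 (at least 3.12-fold) and FOXF1 (at least 1.46-fold), the FOXF genes being factors of lateral plate mesoderm. The lower ones were FOXD3, a pluripotency and neural crest factor (at least 2.68-fold), FOXD1 (-2.34), FOXO4 (-1.71) and FOXJ1. FOXD3 and FOXJ1 were detected on E8 and not on Mesoderm, so they had to be lower. FOXH1, the forkhead partner of SMADs in Nodal signalling, differed by 0.10. Of 14 SOX genes compared, 3 were at least 2-fold higher, SOX17, SOX18 and SOX10 (at least 1.9-fold), and 5 lower, SOX2, SOX21 (at least 35.4-fold), SOX3 (-4.64), SOX8 (-2.55) and SOX13 (-1.48). The shares of all genes beside these counts are again 10.6% and 11.4%. SOX17 and SOX10 were not detected on E8, and SOX2 and SOX21 not on Mesoderm, so the filter fixed their direction. On Nam, SOX10, not detected on E8, was at least 1.41-fold higher than there and SOX21 lower by -1.20. The median of the 14 was -0.47.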

How the data were processed

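Signal intensities and detection p-values per probe were deposited as a table not normalized between arrays, per the file headers. Per the labels' protocols, RNA was extracted with RNAiso Plus and labelled with a TargetAmp-Nano kit. The scanner software is not given in the sources used here. The authors also deposited normalized log2 values, with the method not stated in the sources available here: the series matrix equals them (0 cells differ), column medians were 5.578, 5.5774, 5.5778 and 5.5772 for E8, Nam, Y27632 and Mesoderm, and they were neither centred per gene nor turned in direction, since they follow the log2 signals of their arrays (lowest r 0.9754).

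With limma 3.58.1 in R 4.3.3, neqc estimated background through the detection p-values and applied an offset of 16, quantile normalization and log2. The offset understates differences of dim genes. Probes were named through the platform annotation (30105 with 1 symbol, 8 with several, 17183 unnamed here). A gene took its brightest probe detected (p at most 0.01) on at least 1 array and entered a comparison if either array detected that probe. Calls are by size, 2-fold, with 1 array per condition and no test. Bounds set the dim array at its dimmest detected probe, or at the gene's own value if that is higher. All bounds hold for this background correction and offset only, and other settings can give smaller folds. Members, lists and rules were chosen with earlier results of these data known. Named genes are the 6 members with every probe, list members at least 2-fold apart or at the ends of a list, and the 5 genes most like each detected member. The forkhead and SOX families, and individual list genes beyond that rule, were added after their values were seen.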

Additional observations from a re-analysis of the deposited data

How the results depend on the processing

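No paired analysis was possible because each condition has 1 array. Against 9 alternatives, the 2 members called in Mesoderm minus E8 were SOX17 and FOXA2 throughout, except that 0 were called where both arrays had to detect the probe, which leaves these genes out, and that HHEX joined them at 1.5-fold and with median scaling (-1.18, where the median of all genes was -0.19). At 1.5-fold, 1 member, HHEX, was called lower in Nam minus E8 and 1 in Nam minus Y27632. In all other settings 0 members were called in the comparisons among E8, Nam and Y27632. Differences depended on the treatment of background: SOX17 in Mesoderm minus E8 ranged from 3.07 without background correction to 5.31, FOXA2 from 1.78 as the mean of 3 probes to 5.15 (3.05 without correction), HHEX from -1.18 to -0.55, and HHEX in Nam minus E8 from -0.97 with median scaling to -0.43 without correction. With the authors' normalized values SOX17 stood at 4.80 and FOXA2 at 4.55. With an offset of 50 they stood at 4.14 and 4.12. These and the values without correction are below the log2 bounds of the main setting, 4.42 for SOX17 and 4.51 for FOXA2. Median scaling moved the median of all genes to -0.19, -0.15 and -0.16 in the comparisons of Mesoderm, Nam and Y27632 with E8, and the share of calls that were higher from 48.1% to 36.6%, from 30.7% to 13.2% and from 55.6% to 26.8%. Counts over all genes fell most without background correction, to 573 higher and 510 lower for Mesoderm (from 1235 and 1330), 2 and 32 for Nam (from 79 and 178), 0 and 1 for Y27632 (from 25 and 20) and 1 and 16 for Nam minus Y27632 (from 71 and 120). An offset of 50 gave 869 and 861, 10 and 61, 0 and 1, and 6 and 30 in the same order, and detection on both arrays gave 792 and 830, 25 and 106, 3 and 4, and 9 and 51. For Nam, Y27632 and Nam minus Y27632, the authors' values gave 36 and 106, 8 and 7, and 26 and 64, median scaling 52 and 341, 19 and 52, and 42 and 112, and the mean of all probes 52 and 113, 19 and 10, and 47 and 90. For Y27632, a detection p of at most 0.05 or no filter gave 46 and 19. At 1.5-fold the counts were 2361 and 2621 for Mesoderm, 562 and 762 for Nam, 174 and 223 for Y27632 and 524 and 546 for Nam minus Y27632. FOXA1 would enter at a detection p of at most 0.05, through E8 and Mesoderm, and was not called there.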
